A study of Mus musculus with 6 samples.

Results

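The stem cell program genes are 10 genes that mark blood stem cells or are needed for their maintenance: the surface proteins Cd34, Procr and Ly6a, the signalling genes Fgd5 and Angpt1, the transcription factors Mecom, Hlf and Prdm16, the RNA-binding protein Msi2 and the chromatin reader Mllt3. They were taken by name from the 55401 genes of the deposited table, and all 10 were found. Total RNA of leukaemic cells from the bone marrow of 6 mice had been sequenced, 1 library per mouse. All 6 were secondary recipients of cells transformed with HoxA9 and Meis1, homeobox genes that together cause acute leukaemia in mice. In 3 mice (62, 63 and 87) lymphoid leukaemic stem cells (Lym) had been transplanted and lymphoid cells were sequenced, and in the other 3 (56, 57 and 91) lineage-negative, Kit-positive progenitor cells (Lin-) had been transplanted and sequenced. Strain, age and the donor leukaemia of each mouse are not given in the sources used here, and mice of a group may share a donor. Neither group is normal marrow, so no level is set against a healthy stem cell. Values are given in the order of mice 62, 63 and 87 for Lym and of mice 56, 57 and 91 for Lin-. Of the markers that define the labels, Kit was abundant in every Lin- library, whereas lymphoid genes in the Lym libraries were uneven. The lymphoid cytokine receptor gene Il7r had normalized counts of 424, 82.8 and 14.3 for Lym and at most 4.13 for Lin-. Dntt, which encodes the terminal transferase of early lymphoid cells, was at 216, 29.1 and 4.76 against 0, and the early B cell factor gene Ebf1 at 59.4, 6.71 and 14.3 against at most 1.76. Pax5, which fixes B cell identity, reached at most 0.95 in Lym, and the T cell gene Cd3e was read in Lym mouse 62 alone among the Lym mice, at 35.9.

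Blood stem cells keep themselves over a lifetime through a small set of transcription factors and surface receptors, and most of this program is shut off as progenitors commit to a lineage. Hlf, Mecom and Prdm16 are transcription factors of this program, and Procr, Ly6a (the antigen Sca-1) and Fgd5 serve as markers of its most immature cells in the mouse. Cd34 behaves differently in adult mouse marrow, being low on the most immature stem cells and high on progenitors. Msi2 and Mllt3 act in normal stem cells and in acute leukaemias, and Mllt3, also called AF9, is a frequent fusion partner of KMT2A.

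The program was split in these leukaemias. Cd34, Angpt1, Msi2, Hlf and Mllt3 were transcribed in every library or nearly so, whereas Procr, Ly6a, Fgd5, Mecom and Prdm16 had at most 7 reads in any library. Of the 5 transcribed genes, 4 were highest in Lym mouse 62 and second in Lym mouse 63, and in each of those 4 Lym mouse 87 lay within or below the range of the Lin- mice. This whole pattern, counted after it had been seen, held in 9.02% of the 14273 genes tested. Among these 5, Cd34 alone had its 3 Lym values above its 3 Lin- values, as 8.49% of all genes did. In limma no member reached an adjusted p under 0.05, where 0% of the 14273 genes tested did and 10.2% had an unadjusted p under 0.05. Without Lym mouse 87, Hlf, Angpt1 and Msi2 passed, as did 9.57% of all genes. In bulk libraries fewer cells of a type and less RNA per cell cannot be told apart.

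**Figure D1:**
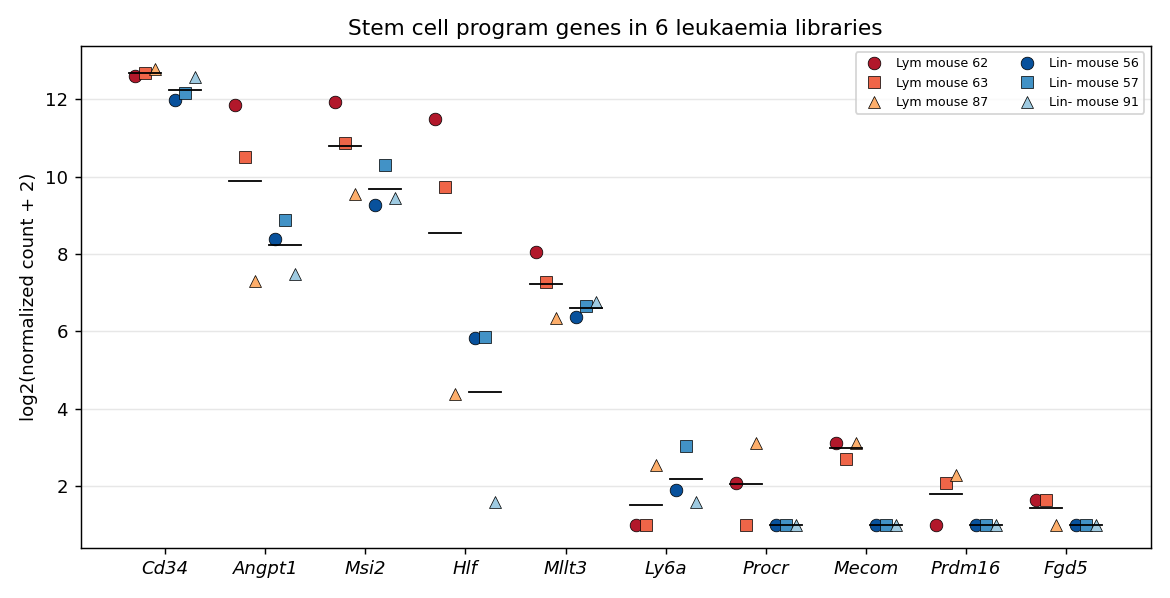
Level of the 10 stem cell program genes in the 6 libraries, as log2(normalized count + 2), with 1 point per mouse and a line at each group's mean on that scale. The 5 genes on the left are transcribed and the 5 on the right lie at or near the bottom of the scale, where a point at 1 is a count of 0.

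Promoter windows were read for the transcribed members because Hlf, Msi2 and Mllt3 ran in the same order over the Lym mice while Cd34 did not. The 250 bases before the RefSeq start in GRCm38.p6 are printed 5′ to 3′ on the gene's strand, at chr11:90390918-90391167 (minus strand) for Hlf, chr11:88718278-88718527 (minus strand) for Msi2, chr4:88033408-88033657 (minus strand) for Mllt3 and chr1:194938571-194938820 (plus strand) for Cd34. Capitals mark TGACGTCA, the cyclic AMP response element, and CACGTG, the E-box.
Hlf: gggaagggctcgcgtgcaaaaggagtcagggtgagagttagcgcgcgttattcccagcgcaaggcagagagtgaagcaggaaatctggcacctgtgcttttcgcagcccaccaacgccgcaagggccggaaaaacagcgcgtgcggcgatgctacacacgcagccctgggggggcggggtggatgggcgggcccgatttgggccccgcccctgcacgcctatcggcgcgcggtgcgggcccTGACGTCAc
Msi2: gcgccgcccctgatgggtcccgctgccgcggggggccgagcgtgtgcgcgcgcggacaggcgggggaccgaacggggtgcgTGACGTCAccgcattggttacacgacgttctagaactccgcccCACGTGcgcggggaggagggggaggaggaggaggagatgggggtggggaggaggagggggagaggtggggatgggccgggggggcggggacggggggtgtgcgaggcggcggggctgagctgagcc
Mllt3: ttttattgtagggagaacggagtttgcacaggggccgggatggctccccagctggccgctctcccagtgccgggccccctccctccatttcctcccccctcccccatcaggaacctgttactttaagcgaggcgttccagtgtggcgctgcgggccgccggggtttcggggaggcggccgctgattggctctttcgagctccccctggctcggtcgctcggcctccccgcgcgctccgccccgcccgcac
Cd34: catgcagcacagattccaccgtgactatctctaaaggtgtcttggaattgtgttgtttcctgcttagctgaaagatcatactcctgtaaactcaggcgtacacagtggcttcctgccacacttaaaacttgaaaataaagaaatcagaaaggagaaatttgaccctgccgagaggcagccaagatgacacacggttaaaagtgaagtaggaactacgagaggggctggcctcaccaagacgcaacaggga
TGACGTCA lay 9 to 2 bases before the start in Hlf and 169 to 162 bases before it in Msi2, and CACGTG lay 126 to 121 bases before it in Msi2. No other member's window held either. Where a gene had several RefSeq starts, as Msi2 with 3, the one nearest the annotated 5′ end of the gene was used. In Msi2 that start lay 236 bases from the annotated end, so both marked motifs fall inside the gene as annotated. In Mecom it lay 38249 bases away. Of the 32851 mouse windows of this length, 1.55% held TGACGTCA and 6.02% CACGTG. Searched on both strands, TGACAG, bound by Meis factors, was in the window of Fgd5 among the members and in 15.9% of all windows. TGATTTAT (Hox with Pbx, 0.837% of windows), TTACGTAA (the site of Hlf and its relatives, 0.113%) and AGATAA, a site of Gata2 and its relatives (9.99%), were in no member's window. None of the searched motifs contains another, and all were chosen after the windows had been read. A match in these letters is a description and shows no binding. The window of Cd34 held 46.4% G and C, against 67.2% in Hlf, 75.6% in Msi2, 69.2% in Mllt3 and a median of 52.4% over all windows. Of the 10 members, 8 had a window, and Ly6a and Angpt1 had none in the table used.

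Hlf, a transcription factor of the PAR bZIP family whose activity marks the most immature blood cells, varied more than nearly every other gene. It lies on chromosome 11 (90336536 to 90390895 in GRCm38, minus strand). Normalized counts, which are reads divided by the authors' size factor for each library, were 2898, 847 and 19.1 for Lym and 54.7, 56.3 and 1.03 for Lin-. Lym mouse 62 stood 77.6-fold and Lym mouse 63 22.7-fold above the Lin- mean, while Lym mouse 87 was below Lin- mice 56 and 57, so the groups overlapped. The value of Lin- mouse 91 was 1 read, under the floor of 3 reads. Over the 6 libraries the SD of log2(normalized count + 2) was 3.60, rank 10 of the 14273 genes tested, where the median gene had 0.32. The spread was wide inside each group too, with SDs of 3.70 in Lym (rank 21) and 2.45 in Lin- (rank 26) on that scale. The log2 fold change, Lym minus Lin-, was 4.11 ± 1.78 (SE, limma adjusted p = 0.485), with a 95% interval of 0.05 to 8.18. The estimate moved with the mice in the fit. It was 6.19 without Lym mouse 87 (adjusted p = 0.0144), 2.63 without Lym mouse 62 (adjusted p = 0.853) and 2.70 without Lin- mouse 91 (adjusted p = 0.857).

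**Figure D2:**
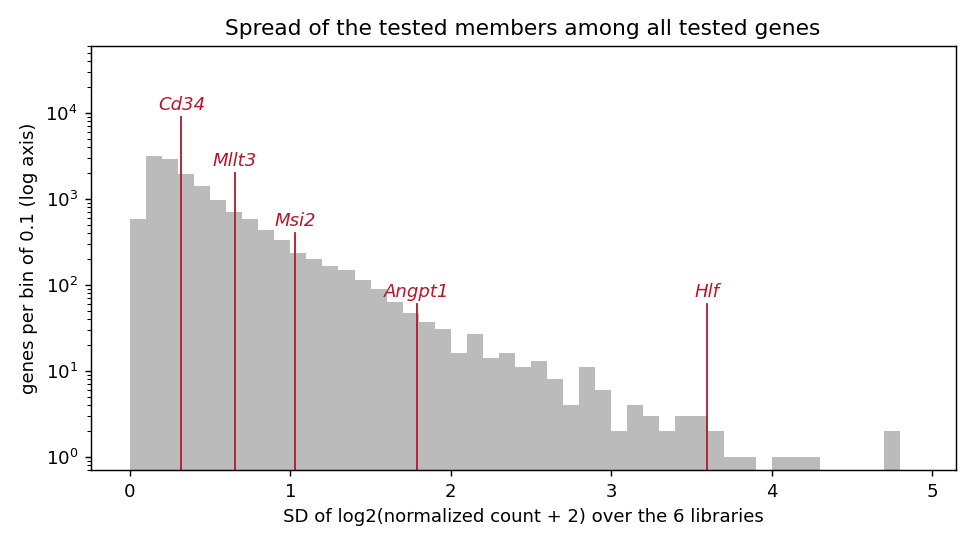
Histogram of the SD over the 6 libraries for the 14273 genes tested, on the log2(normalized count + 2) scale, with a log axis for the number of genes per bin of 0.1. Vertical lines mark the 5 tested stem cell program genes, from Cd34 at 0.32 to Hlf at 3.60.

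Angpt1, the secreted ligand of the receptor tyrosine kinase Tie2, followed the same order with a smaller range. It lies on chromosome 15 (42424723 to 42676977, minus strand). Its counts were 3718, 1457 and 156 for Lym and 331, 471 and 176 for Lin-. Lym mouse 87 was lower than every Lin- mouse, and Lym mice 62 and 63 were 11.4- and 4.47-fold above the Lin- mean. Its SD over the 6 libraries was 1.79 on the log2 scale, rank 225 of the genes tested. The log2 fold change was 1.65 ± 0.98 (limma adjusted p = 0.573), 2.94 without Lym mouse 87 (adjusted p = 0.0069) and 0.66 without Lym mouse 62 (adjusted p = 0.910). An antisense gene, Gm17473, shares 737 bases of exon with Angpt1 and stood at 94.2, 26.9 and 4.76 against 4.41, 13.2 and 5.16. Whether counting used the strand is not stated, so reads there may belong to either gene. Tek, which encodes Tie2, was near 0, with 6.67 in Lym mouse 87, 0.88 in Lin- mouse 57 and 0 elsewhere. The relative Tie1 did not pass 1.12 in any library, and of the other ligands Angpt2 reached 8.58 in Lym mouse 87 and Angpt4 had no read.

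Msi2, an RNA-binding protein of the Musashi family that sustains stem cells and several leukaemias, had counts of 3935, 1866 and 753 for Lym and 617, 1258 and 700 for Lin-. Lin- mouse 57 lay above Lym mouse 87, so the groups overlapped here as well. Msi2 is on chromosome 11 (88339382 to 88718513, minus strand), as is Hlf. The log2 fold change was 1.11 ± 0.53 (limma adjusted p = 0.509). It was 1.73 without Lym mouse 87 (adjusted p = 0.0187), and 0.54 without Lym mouse 62 (adjusted p = 0.863). Msi1, the other Musashi gene, had reads in Lym mouse 87 only, at 2.86. Syncrip, an RNA-binding partner of Msi2 in leukaemia, was at 7861 ± 737 for Lym and 7824 ± 549 for Lin- (SD, 3 mice each), with a fold change of 0.01 ± 0.12 on the log2 scale. Numb, a known Msi2 target, had a log2 fold change of 0.15 ± 0.14.

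Mllt3, which reads acylated histone lysines within the super elongation complex, varied least after Cd34. It lies on chromosome 4 (87769925 to 88033364, minus strand) and had counts of 266, 154 and 80.0 for Lym and 81.2, 98.6 and 107 for Lin-. Lym mouse 87 was again the lowest, just under the lowest Lin- mouse. The log2 fold change was 0.64 ± 0.42 (limma adjusted p = 0.60), 1.08 without Lym mouse 87 (adjusted p = 0.0749) and 0.22 without Lym mouse 62 (adjusted p = 0.935). Mllt1, which encodes the close relative ENL, differed between the groups without overlap, at 1563, 1399 and 1383 for Lym against 1058, 1075 and 1065 for Lin- (log2 fold change 0.44 ± 0.12, limma adjusted p = 0.420). Among other partners, the histone methyltransferase gene Dot1l had a log2 fold change of 0.08 ± 0.12, Aff1 of 0.35 ± 0.12 and Aff4 of 0.47 ± 0.16. Their limma adjusted p-values were 0.827, 0.446 and 0.446. The groups did not overlap in Aff1 and Aff4 either, both higher in Lym. Of all genes tested, 8.49% were higher in Lym without overlap.

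Cd34, a sialomucin of progenitor cells, showed the only separation of groups among the tested members. It lies on chromosome 1 (194938819 to 194961279, plus strand). Its counts were 6207, 6605 and 7099 for Lym and 4025, 4626 and 6152 for Lin-. The lowest Lym value exceeded the highest Lin- value by a margin much smaller than the spread among the Lin- mice, and Lym mouse 87, low in the other 4, had the highest Cd34 of all. The log2 fold change was 0.45 ± 0.16, with a 95% interval of 0.08 to 0.81 (limma adjusted p = 0.451). Groups were thus apart in 1 of the 5 tested members, higher in Lym, and in 0 of them lower, where 8.49% and 7.08% of all genes were. By an unadjusted limma p under 0.05, Cd34 and Hlf were higher in Lym and no member lower, where 5.96% and 4.27% of all genes were. Hlf, Angpt1 and Msi2 had a log2 fold change above 1, a size that 7.23% of all genes passed in either direction. An antisense gene, Gm16897, shares 148 bases of exon with Cd34 and reached at most 18.6 in a library. Leaving out any mouse moved the log2 fold change of Cd34 only between 0.31 and 0.62, with adjusted p-values of 0.168 to 0.857. All 5 tested members had a fold change above 0, with a median of 1.11, where 48.7% of all genes did and the median was -0.01. The members were chosen with earlier results of these data known. Hlf, Angpt1, Msi2 and Mllt3 also ran alike over the libraries (pairwise Pearson r of 0.79 to 0.95), so these are not 5 separate directions. The authors' deposited table, a DESeq2 comparison with shrunken fold changes, gave the members adjusted p-values of 0.823 for Cd34 and 0.964 for the other 9, and 0.32% of its genes passed 0.05.

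**Figure D3:**
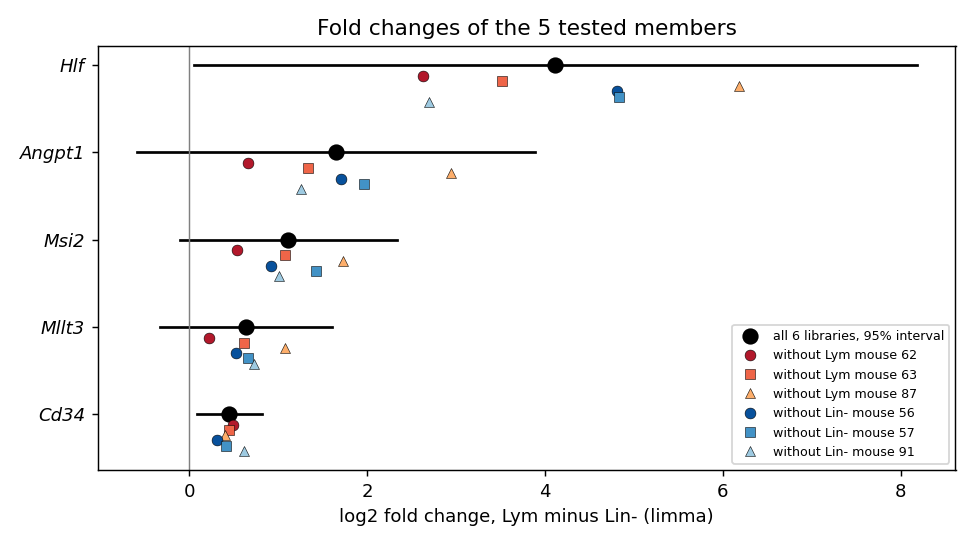
Log2 fold changes of the 5 tested members, Lym minus Lin-, from limma. Black points and bars give the estimate with its 95% interval over all 6 libraries, and coloured points the estimate with 1 mouse left out. Leaving out Lym mouse 87 gives the highest estimate in Hlf, Angpt1, Msi2 and Mllt3, and leaving out Lym mouse 62 gives the lowest.

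On a scale that allows genes to be compared, reads per kilobase of exon and library depth (RPKM), Cd34 led in every library, from 40.5 to 47.9 in Lym and from 27.9 to 40.9 in Lin-. In the Lin- group the order below it was Msi2 at 4.11 ± 1.70, Angpt1 at 3.13 ± 1.45, Mllt3 at 0.396 ± 0.048 and Hlf at 0.282 ± 0.237 (SD, n = 3 each). Msi2 and Angpt1 did not differ beyond their spread, nor did Mllt3 and Hlf. In Lym mouse 62 Angpt1 reached 34.0 RPKM, near the 40.5 of Cd34, followed by Hlf at 20.6, Msi2 at 18.0 and Mllt3 at 1.05. In Lym mouse 63 the order was Angpt1 at 13.5, Msi2 at 8.65, Hlf at 6.11 and Mllt3 at 0.620. Lym mouse 87 had Msi2 at 3.56, Angpt1 at 1.48, Mllt3 at 0.328 and Hlf at 0.140, which is the order of the Lin- mean but not of every Lin- mouse. Lin- mouse 56 had Angpt1 above Msi2, and Lin- mice 56 and 57 had Hlf above Mllt3.

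Mecom, Procr, Prdm16, Fgd5 and Ly6a, unlike Hlf, were close to absent. Mecom, the zinc finger factor EVI1 (chromosome 3, 29951296 to 30548008), had 6, 4 and 7 reads for Lym and 0 in every Lin- library. Pooled over the mice this is 0.29 CPM (reads scaled to library depth) in Lym, at least 6.29-fold above the floor of 3 reads over the Lin- libraries. Procr, the endothelial protein C receptor (chromosome 2, 155751117 to 155755471), had 2, 0 and 7 reads against 0. Prdm16, the closest relative of Mecom (chromosome 4, 154316125 to 154636873), had 0, 2 and 3 reads against 0. Fgd5, an exchange factor for the GTPase Cdc42 (chromosome 6, 91978878 to 92076004), had 1, 1 and 0 reads against 0. Ly6a (chromosome 15, 74994877 to 74998031) went the other way, with 0, 0 and 4 reads in Lym and 2, 7 and 1 in Lin-. The first 4 of these genes, grouped here because none had a Lin- read, had 33 reads in Lym, 17 of them from Mecom. Ly6a had 4 reads in Lym and 10 in Lin-. Among the 3289 single genes with 10 to 25 reads in all, as Mecom had, 18.1% had no Lin- read and 2.98% no Lym read, and 5.62% had every Lym library above every Lin- library as Mecom did. No Lin- read was found for 48.5% of the 4563 genes with 4 to 9 reads, the range of Procr and Prdm16, and for 71.1% of the 7212 genes with 1 to 3, the range of Fgd5. All 5 genes fell below the filter of 10 normalized counts in 3 libraries and were not tested. With no filter, limma gave Mecom an adjusted p of 0.518. Lowly covered annotations on the other strand share exon bases with Mecom (Mecomos, 81 bases) and Prdm16 (B230104I21Rik, 109 bases).

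Several genes near the silent members were transcribed, and 2 near Ly6a were abundant. Ly6e, to its left, was at 10595 ± 452 for Lym and 9113 ± 263 for Lin- (SD, 3 mice each). Ly6c2, to its right, had counts of 961, 2608 and 3356 for Lym against 4430, 4942 and 4820 for Lin- (log2 fold change -1.22 ± 0.39, limma adjusted p = 0.441). Ly6c2 is a monocyte and granulocyte antigen, and its 3 Lym values lay under all Lin- values, with mouse 87 nearest to them. Of all genes tested, 7.08% were lower in Lym without overlap. Members of the Ly6 family are alike in sequence, and how shared reads were split is not stated. The nearer genes Ly6i and Ly6c1 did not pass 1.91 and 36.1. Nr2c2, beside Fgd5, ranged from 2793 to 4018, and Mynn, near Mecom, from 538 to 647, while the 4 nearest genes of Prdm16 did not pass 5.59. The protein-coding neighbours of Hlf, Mmd on the left and Stxbp4 on the right, were transcribed as well. Mmd had counts of 312, 260 and 232 for Lym and 171, 246 and 202 for Lin-, and Stxbp4 of 244, 224 and 213 and of 183, 184 and 210. Neither neighbour showed the range of Hlf.

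Among 10299 named protein-coding genes that passed the filter, those whose values ran most like each member's were found by the distance between centred log2 values over the 6 libraries, a description with no test. For Hlf they were Bcl11a (distance 2.06), a zinc finger factor of lymphoid and stem cells, and Cpa3 (2.21), the carboxypeptidase of mast cells and their precursors, where Hlf itself lay 8.05 from a flat profile. Counts of Bcl11a were 1751, 1025 and 21.9 for Lym and 9.70, 43.1 and 0 for Lin-. Those of Cpa3 were 15971, 3966 and 343 for Lym and 196, 147 and 6.19 for Lin-. For Angpt1 they were Mrgpre (0.59) and Lrrc1 (0.62), for Msi2 Rnf144a (0.47) and Ddx60 (0.49), for Mllt3 Ccdc189 (0.19) and Vezf1 (0.30), and for Cd34 Carhsp1 (0.24) and Dync1h1 (0.24). With 6 libraries many genes lie close to any profile: 12.8% of the genes tested were highest in Lym mouse 62 and second in Lym mouse 63, as 4 of the 5 tested members were, a pattern counted after it had been seen.

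**Figure D4:**
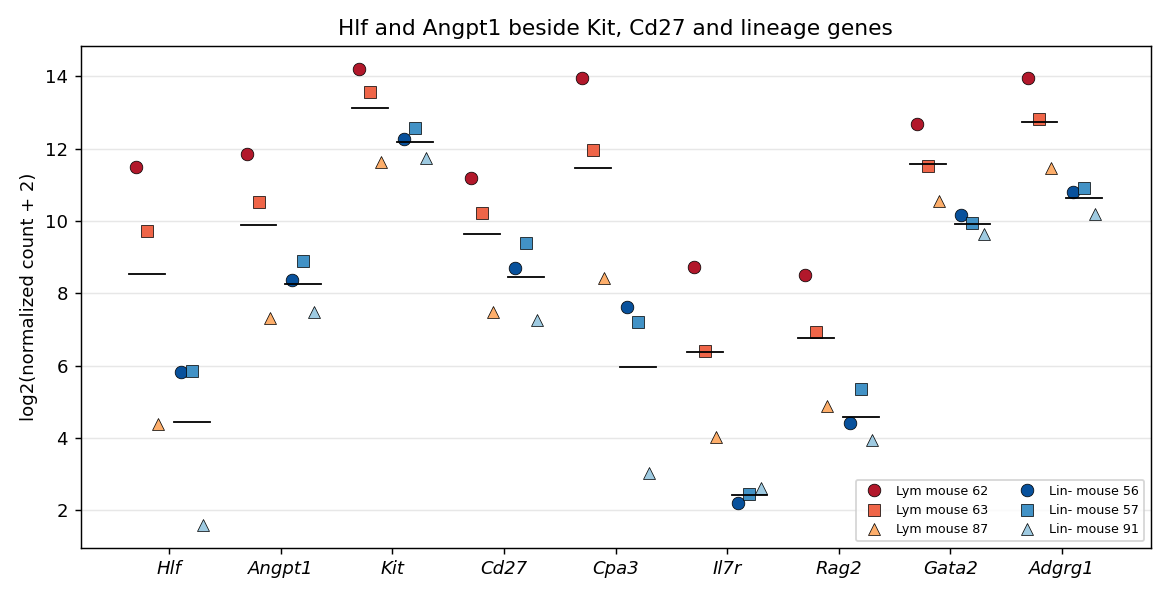
Hlf and Angpt1 beside Kit, Cd27, Cpa3, Il7r, Rag2, Gata2 and Adgrg1 in the 6 libraries, as log2(normalized count + 2) with a line at each group's mean on that scale. The genes were picked after their values were seen. Lym mice 62 and 63 are the highest libraries in all 9 genes, and Lym mouse 87 lies within or below the range of the Lin- mice in Hlf, Angpt1, Kit, Cd27 and Rag2.

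The wider stem cell program was mixed in the same way. Of 16 further surface markers 9 passed the filter and 0 were called, 7 with a fold change above 0 and a median of 0.93. Adgrg1, the adhesion receptor GPR56, had the highest log2 fold change (2.11 ± 0.53, limma adjusted p = 0.420), with counts of 15875, 7272 and 2811 for Lym against 1788, 1935 and 1174 for Lin-. Itga6 had the lowest (-0.35 ± 0.18), and Cd47, the most abundant, was at 19659 ± 3057 against 16894 ± 279 (SD, 3 mice each). Kit, the stem cell factor receptor by which the Lin- cells are defined, had counts of 18902, 12027 and 3158 for Lym and 4953, 6066 and 3420 for Lin-. Kit thus ran in the order of Angpt1 over the 6 mice, with Lym mouse 87 below all 3 Lin- mice. Robo4 and Epcam had no read, and Slamf1 did not pass 4.41.

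Of 24 further transcription factors 16 were tested and 0 called, 14 with a fold change above 0 and a median of 0.35. Ikzf2 had the highest log2 fold change (3.16 ± 1.48, limma adjusted p = 0.505) and Nfia the lowest (-0.97 ± 1.01), both at low counts. Myb, the most abundant, had counts of 43579, 29322 and 27613 for Lym against 23477, 25883 and 21926 for Lin- (0.47 ± 0.18, adjusted p = 0.460). The groups did not overlap in 5 of the 16, Gata2, Runx1, Etv6, Myb and Fli1, where 8.49% of all genes were apart in this direction. Hoxb4 and Hoxa10 had no read, and Hoxb5 had reads in Lym mouse 63 only, at 2.24. Of 16 genes of quiescence and retention 10 were tested and 0 called, 9 with a fold change above 0 and a median of 0.39. Vldlr had the highest log2 fold change (3.65 ± 1.64, adjusted p = 0.492) and Cdkn1a, an inhibitor of the cell cycle, the lowest (-0.55 ± 0.72). Cxcr4, the receptor that holds stem cells in the marrow and the most abundant of them, had a log2 fold change of 0.05 ± 0.19. Egr1, Txnip and Foxo3 were apart and higher in Lym, where 8.49% of all genes were. Of the 39 partners and relatives of the members 24 were tested and 0 called, 16 above 0 and 8 below, with a median of 0.11. Of these 24, 5 were apart and higher in Lym and 4 apart and lower, where 8.49% and 7.08% of all genes were. Ly6k had the highest log2 fold change (1.27 ± 1.34) and Ly6c1 the lowest (-1.58 ± 0.78), and Syncrip was the most abundant. Of the relatives of Hlf that bind the same DNA site, Tef had counts of 1340, 882 and 496 for Lym and 438, 583 and 422 for Lin- (0.81 ± 0.33, adjusted p = 0.467), and Dbp had a log2 fold change of 0.64 ± 0.49. Over the Lym mice Tef ran in the order of Hlf, with a far smaller range. Nfil3, a bZIP factor that binds the same site, had a log2 fold change of -0.18 ± 0.42, with its highest count in Lym mouse 87.

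Several lists of other cell types had their highest sum in Lym mouse 62 and the second highest in Lym mouse 63. The myeloid, erythroid and interferon lists did not. The 10 genes of mast cells and basophils summed to 837, 226 and 44.6 CPM for Lym and to 44.6, 46.9 and 16.2 for Lin-. In Lym mice 62 and 63 nearly all of this was Cpa3 and the histamine enzyme gene Hdc. Fcer1a and Cma1 had no read, and Tpsab1 did not pass 2.24. The 14 early B genes summed to 594, 362 and 237 against 195, 215 and 140, nearly all Sox4, which is not restricted to B cells. Cd79b followed on the mean over all libraries, and Vpreb3 had no read. Cd79b was highest in Lin- mouse 56, at a normalized count of 414. In Lym mice 62 and 63 it lay below Il7r, and in Lym mouse 63 also below Bach2 (28.0 against 214). Of the 5 early B genes tested, 4 had a fold change above 0, and the same 4 had an unadjusted limma p under 0.05. Il7r, Bach2 and Sox4 were apart and higher in Lym. Of all genes 5.96% had such a p and were higher in Lym, and 8.49% were apart and higher in Lym. The log2 fold changes were 3.96 ± 1.03 for Il7r, 2.20 ± 0.84 for Rag2, 2.09 ± 0.38 for Bach2, 1.07 ± 0.31 for Sox4 and -0.53 ± 0.99 for Cd79b, with limma adjusted p-values of 0.406 to 0.866. The 10 megakaryocyte genes summed to 199, 176 and 99.6 against 95.2, 91.6 and 84.4, mainly Itgb3 and Itga2b. Of that list Pf4 did not pass 3.36, and Gp1bb, Ppbp and Treml1 had no read. The 10 stromal genes summed to 200.4, 178 and 33.6 against 34.1, 36.1 and 22.4, nearly all Pdgfrb, followed by Col1a2, and Lepr, Dcn and Col3a1 stayed at or near 0. Endothelial cells, which also express Cd34, Procr, Fgd5 and Mecom, had a list sum of 456, 400.3 and 337 against 256, 309 and 275, nearly all Pecam1, which leukocytes share, followed by Flt1. Cldn5 had no read, Cdh5 did not pass 4.48 and Kdr 4.48. Of the 4 endothelial genes tested, 3 had a fold change above 0 and 1 below. Plvap had the highest log2 fold change (2.42 ± 0.81, limma adjusted p = 0.446) and Flt1 the lowest (-1.31 ± 0.68). Plvap and Pecam1 were apart and higher in Lym, where 8.49% of all genes were. The 11 T and NK genes summed to 17.3, 3.99 and 1.27 against 1.38, 0.839 and 0.30, with Nkg7 and Lck foremost. The erythroid list did not pass 0.884 in any library, led by Klf1 and Slc4a1, with 7 of its 10 genes at 0. Genes of myeloid differentiation summed to 4462, 4429 and 4220 against 5296, 8762 and 5045, led by Mpo and Ctsg, and 9 of the 12 tested were lower in Lym, with 0 called. Of these 12, 5 had an unadjusted limma p under 0.05 and 4 were apart, all of them lower in Lym. Over all genes the shares in that direction were 4.27% and 7.08%. The interferon list, relevant to Ly6a and led by Stat2, ranged from 103 to 122 in Lym and from 103 to 126 in Lin-. None of these lists held a called gene. The part of these other genes in the levels of the members was not tested.

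Sequencing depth was alike, at 18537700 to 22634286 reads in genes per library. Lym mouse 62, the library with the highest Hlf, Angpt1, Msi2 and Mllt3, was made from 1 ng of RNA and the other 5 from 2 ng. Lym mouse 63 had the second highest value in all 4. Only mouse 62 had the lower input, so mouse and input cannot be told apart. The part of that input in these values was not tested. A floor of 3 reads equals 2.64 to 3.36 normalized counts and covers counting error only.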

How the data were processed

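Each of the 6 libraries was prepared from total RNA with a stranded low-input kit and 12 PCR cycles and read at 38 bases, per the labels' protocols. The submitters' processing notes name Trim Galore 0.6.4, STAR 2.6.1d, featureCounts 1.6.4, DESeq2, bcl2fastq and the build GRCm38.p6. The annotation release and strand setting are not given in the sources used here. The authors deposited a signal per gene and library, which is the count over that library's size factor. Among values of up to 10000 reads, all 125862 were whole multiples of their library's step (tolerance 0.01), so reads were recovered. A log2 fold change, a Wald score and a p-value per gene were also deposited by the authors, and signs were turned to Lym minus Lin-. Coordinates are from GENCODE M21, which held 54349 of the deposited identifiers. Promoter sequences are from RefSeq (GRCm38.p6).

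limma 3.58.1 (R 4.3.3, trend option, two-sided) compared log2(normalized count + 2) between the groups. It tested the 14273 genes that reached 10 normalized counts in 3 or more libraries, with Benjamini-Hochberg adjustment over all of them. Folds of low genes are understated on this scale. Alternatives were edgeR 4.0.16 (quasi-likelihood, TMM), DESeq2 1.42.0 and limma-voom on recovered reads, other scaling, filters and pseudocounts, library weights, and leaving out each mouse. The fits were tested on simulated data. Figures were drawn with matplotlib 3.10.9 in Python 3.11.15. Labels give neither batches nor pairs, and do not say whether mice are independent, so p-values measure the spread between these mice. The members and lists were chosen with earlier results of these data known.

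All 10 members are named. Of each pathway list the text names the lowest and highest tested fold change and the most abundant gene, and of each cell type list the 2 most abundant. It also names the 2 genes most like each member with a mean count of at least 100, and overlapping and nearby genes. Other genes were chosen after their values were seen. Some genes of the lists are not reported here.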

Additional observations from a re-analysis of the deposited data

How the results depend on the processing

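Calls numbered 0 in limma (1459 at an unadjusted p under 0.05), in edgeR (1444) and in limma-voom (1362), and likewise with TMM scaling, a filter of 50 normalized counts and a pseudocount of 0.5. There were 226 in DESeq2, 660 with library weights, 5 with no filter and 1 with a pseudocount of 8. Leaving out 1 mouse gave 0 to 1366 calls, the latter without Lym mouse 87, and 0 to 3 members called. The 3 members called without Lym mouse 87 were Hlf, Angpt1 and Msi2, where 9.57% of all genes were called. That library lay within or below the Lin- range for these genes. Library weights in limma called 1 member, Hlf (adjusted p = 0.0496), where 4.62% of all genes were called. The other settings called 0 members. The cause of these differences was not tested.

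The log2 fold changes of the 5 tested members stayed above 0 in all 15 alternatives, from 2.63 to 6.19 for Hlf, 0.66 to 2.94 for Angpt1, 0.54 to 1.73 for Msi2, 0.22 to 1.08 for Mllt3 and 0.31 to 0.62 for Cd34. No paired analysis was possible because the mice of the groups share no number. The 5 members with few reads were below the filter and not tested there. With no filter Mecom had a limma p of 0.00311 (adjusted p = 0.518). No group had the 4 samples needed to test for outlying libraries.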
